A study of Mus musculus with 6 samples.

Results

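The proteasome genes measured on these mouse liver arrays were taken as every gene whose symbol, matched from the probe accession, begins with Psma, Psmb, Psmc, Psmd or Psme. The rule found 45 genes among the 18338 genes named on the array, and all 45 entered tests that ran over 15378 genes. Of the 45, the 5 genes of the immunoproteasome set were Psmb8, Psmb9, Psmb10, Psme1 and Psme2, and the other 40 are called the other members. The prefix also takes in 2 genes that encode no subunit: Psmc3ip, a cofactor of homologous recombination in meiosis, and Psme3ip1, a protein that binds Psme3. The signal of 44 members lay well above background on all 6 arrays. Psmb11 was the exception, with 3 such arrays.

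Total RNA of 6 livers or liver tumours was hybridised to single-colour arrays, 1 sample an array. Every mouse carried the allele Fah_del_tm1Mgo on a background labelled BL6, and so lacked fumarylacetoacetate hydrolase, which completes the breakdown of tyrosine. FCR mice carried Rag2_del_tm1Fwa and common gamma chain del tm1Wjl in addition, and such mice make no mature T, B or NK cells. NTBC, which blocks tyrosine breakdown upstream of Fah and protects these livers, was given in drinking water at 7.5 μg/ml. The Fah samples were tumour under the regimen labelled off (1 array), tumour under the regimen labelled 2xoff/on (1 array) and healthy liver on continuous NTBC (1 array). The FCR samples were inflamed liver under off (1 array), inflamed liver under 2xoff/on (1 array) and normal liver on continuous NTBC (1 array). Both withdrawal regimens had 2 courses, and the labels do not settle in which NTBC phase each liver was taken. Age, sex, pooling and the number of animals behind a group were not found in the labels.

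The 26S proteasome degrades ubiquitin-tagged proteins. Its barrel, the 20S core, is built from alpha rings (Psma genes) around beta rings (Psmb genes), and its 19S cap holds an ATPase ring (Psmc genes) that unfolds substrates and further subunits (Psmd genes) that bind and deubiquitinate them. In leukocytes, and in other cells under interferon gamma, the catalytic beta subunits Psmb5, Psmb6 and Psmb7 are replaced in new particles by Psmb8, Psmb9 and Psmb10, and the PA28 cap of Psme1 and Psme2 can take the place of the 19S cap. Such immunoproteasomes shape the peptides shown on MHC class I. Hepatocytes hold mainly the constitutive form at rest.

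Values are processed signals on the log2 scale, set to 0 at the 75th percentile of each array and called relative signal, so values compare arrays for 1 gene and not genes with each other. Between 60.5% and 74.5% of spots were well above background, and no spot was saturated. Albumin (Alb) had a relative signal between 8.79 and 10.32 on the 6 arrays, so all samples held hepatocyte RNA. Slide 1 carried the 4 off and continuous arrays and slide 2 carried both 2xoff/on arrays; within tumour and within inflamed liver, regimen and slide therefore cannot be told apart. In this scaling the genotypes lay furthest apart at off. The 75th percentile signals, to which values are set, also differed most there, with 812 on the tumour off and 363 on the inflamed off array. They were 889 and 724 on the tumour and inflamed 2xoff/on arrays, and 363 and 374 on the healthy Fah and normal FCR arrays. Without Psmb11, the Fah minus FCR differences of single members ran between -2.14 (Psma8) and 1.29 (Psmd1) at off, between -1.01 (Psme1) and 1.64 (Psmc3ip) at 2xoff/on, and between -0.68 (Psmb10) and 0.47 (Psmb2) on continuous NTBC. Some results are therefore also given without an off array.

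The promoters below show the genes on which the immunoproteasome comparison turns, each from 250 bases before to 50 bases after the start site, as RefSeq gives them on GRCm38.p6. Psmb9 lies at chr17:34187281-34187580 on the minus strand. Its window shares 275 bases with that of Tap1, the peptide transporter gene that is read in the opposite direction, and capitals mark the 225 bases between both start sites. Psmb8, its neighbour in the MHC region, lies at chr17:34197945-34198244 on the plus strand, and capitals mark a match to TTCNNNGAA, the gamma-activated site of interferon gamma target genes, 97 bases before the start. Psme1 lies at chr14:55578244-55578543 on the plus strand, and capitals mark a minus-strand match to GAAANNGAAA, the core of the interferon-stimulated response element, which begins at base 260 of 300. Psmb5 lies at chr14:54617946-54618245 on the minus strand, and capitals mark a match to TGACNNNGC, the antioxidant response element core that Nrf1 and Nrf2 bind, 47 bases before the start.
Psmb9: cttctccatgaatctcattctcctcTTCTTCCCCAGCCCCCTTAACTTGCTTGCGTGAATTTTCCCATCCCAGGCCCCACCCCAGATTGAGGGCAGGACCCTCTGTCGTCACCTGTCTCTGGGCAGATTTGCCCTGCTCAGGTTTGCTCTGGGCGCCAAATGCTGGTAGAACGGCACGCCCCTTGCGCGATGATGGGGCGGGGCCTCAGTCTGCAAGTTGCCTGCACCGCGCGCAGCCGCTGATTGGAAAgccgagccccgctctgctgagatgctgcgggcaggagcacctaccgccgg
Psmb8: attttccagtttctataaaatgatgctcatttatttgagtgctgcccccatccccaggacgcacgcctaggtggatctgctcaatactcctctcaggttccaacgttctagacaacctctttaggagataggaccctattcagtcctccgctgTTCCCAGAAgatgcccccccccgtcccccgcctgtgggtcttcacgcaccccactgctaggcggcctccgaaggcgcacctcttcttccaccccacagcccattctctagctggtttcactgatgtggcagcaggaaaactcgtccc
Psme1: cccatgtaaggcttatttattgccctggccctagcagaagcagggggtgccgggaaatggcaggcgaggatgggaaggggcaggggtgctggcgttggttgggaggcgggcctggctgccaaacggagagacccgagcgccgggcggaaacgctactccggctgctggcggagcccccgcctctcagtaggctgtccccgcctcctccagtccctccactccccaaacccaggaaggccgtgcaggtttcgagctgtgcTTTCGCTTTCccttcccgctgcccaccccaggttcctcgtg
Psmb5: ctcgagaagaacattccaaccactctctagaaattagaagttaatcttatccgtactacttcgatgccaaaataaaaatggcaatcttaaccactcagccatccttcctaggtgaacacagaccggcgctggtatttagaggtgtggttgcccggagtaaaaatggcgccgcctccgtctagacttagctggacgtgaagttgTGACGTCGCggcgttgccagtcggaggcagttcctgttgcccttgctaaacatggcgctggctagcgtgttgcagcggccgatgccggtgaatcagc

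Promoter windows were found for 38 of the 45 members, and both strands were searched. The interferon core GAAANNGAAA was in 4 of the 38 genes (Psmb3, Psmd4, Psmd9 and Psme1), against 3.44% of all 32851 windows. The gamma-activated site TTCNNNGAA was in 2 (Psmb8 and Psmd2), against 8.3% of all windows. The antioxidant core TGACNNNGC was in 6 (Psmb5, Psmb6, Psmc6, Psmd12, Psmd9 and Psme4), against 12.4% of all windows. A match is a run of letters and was not tested as a binding site.

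The first comparison set Fah against FCR livers over the 3 regimens, which sets mice with lymphocytes against mice without them. At off and 2xoff/on the Fah samples were tumour and the FCR samples inflamed liver, so genotype and tissue cannot be told apart at these regimens. The 5 immunoproteasome genes all had negative differences (Fah minus FCR), with a median of -0.66, against -0.39 for the other members and -0.11 for all genes tested. After quantile normalization the median of the 5 was -0.26 and that of the other members -0.089, and in the authors' values these were -0.27 and -0.10. None passed the test: of the 45 members 0 were called at an adjusted p under 0.05 by limma with Benjamini-Hochberg adjustment, where 0.312% of all genes were called. At an unadjusted p under 0.05, 5 members had lower values in Fah (Psma8, Psmb11, Psmb3, Psmb8 and Psme2), where 6.8% of all genes were lower in Fah at that level.

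Psmb8 encodes the chymotrypsin-like subunit beta5i, which takes the place of Psmb5. Its relative signal was 2.91 in tumour under off, 2.81 in tumour under 2xoff/on and 2.50 in healthy Fah liver, against 3.68, 3.62 and 2.96 on the inflamed off, inflamed 2xoff/on and normal FCR arrays. All 3 Fah arrays lay below all 3 FCR arrays, and within each genotype the withdrawn arrays lay above the continuous one. The difference was -0.68 ± 0.28 (SE; Fah minus FCR, n = 3 arrays each), with a limma adjusted p of 0.406. The other probe of Psmb8 gave -0.67.

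Psmb9 encodes beta1i, which takes the place of the caspase-like subunit beta1 (Psmb6). Its relative signal was 2.82, 2.80 and 2.26 on the tumour off, tumour 2xoff/on and healthy Fah arrays, against 2.86, 3.22 and 2.75 on the inflamed off, inflamed 2xoff/on and normal FCR arrays. Healthy Fah liver held the lowest value, and both tumour arrays lay above the normal FCR array, so the genotypes overlapped. The difference was -0.31 ± 0.28 (SE; Fah minus FCR, n = 3 arrays each), with a limma adjusted p of 0.651.

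Psmb10 encodes the trypsin-like subunit beta2i, which takes the place of Psmb7. Its relative signal was 4.09, 4.36 and 3.84 on the tumour off, tumour 2xoff/on and healthy Fah arrays, against 5.12, 4.49 and 4.53 on the inflamed off, inflamed 2xoff/on and normal FCR arrays. The Fah arrays lay below the FCR arrays without overlap, and the inflamed off array was the highest of all. The difference was -0.61 ± 0.32 (SE; Fah minus FCR), with a limma adjusted p of 0.486.

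Psme1 and Psme2 encode PA28 alpha and beta, the activator ring that opens the 20S core without ATP. Psme1 had 4.55, 4.09 and 5.26 on the tumour off, tumour 2xoff/on and healthy Fah arrays, against 5.67, 5.10 and 5.11 on the inflamed off, inflamed 2xoff/on and normal FCR arrays. Psme2 had 5.50, 5.49 and 5.61 on the tumour off, tumour 2xoff/on and healthy Fah arrays, against 7.08, 6.30 and 6.05 on the inflamed off, inflamed 2xoff/on and normal FCR arrays. Tumour held the lowest values of both genes, and Psme2 had no overlap between genotypes, while healthy Fah liver reached into the FCR range of Psme1. The difference of Psme2 was -0.94 ± 0.36 (SE; Fah minus FCR), with a limma adjusted p of 0.391. For Psme1 it was -0.66 ± 0.36 (SE), with a limma adjusted p of 0.504.

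**Figure D1:**
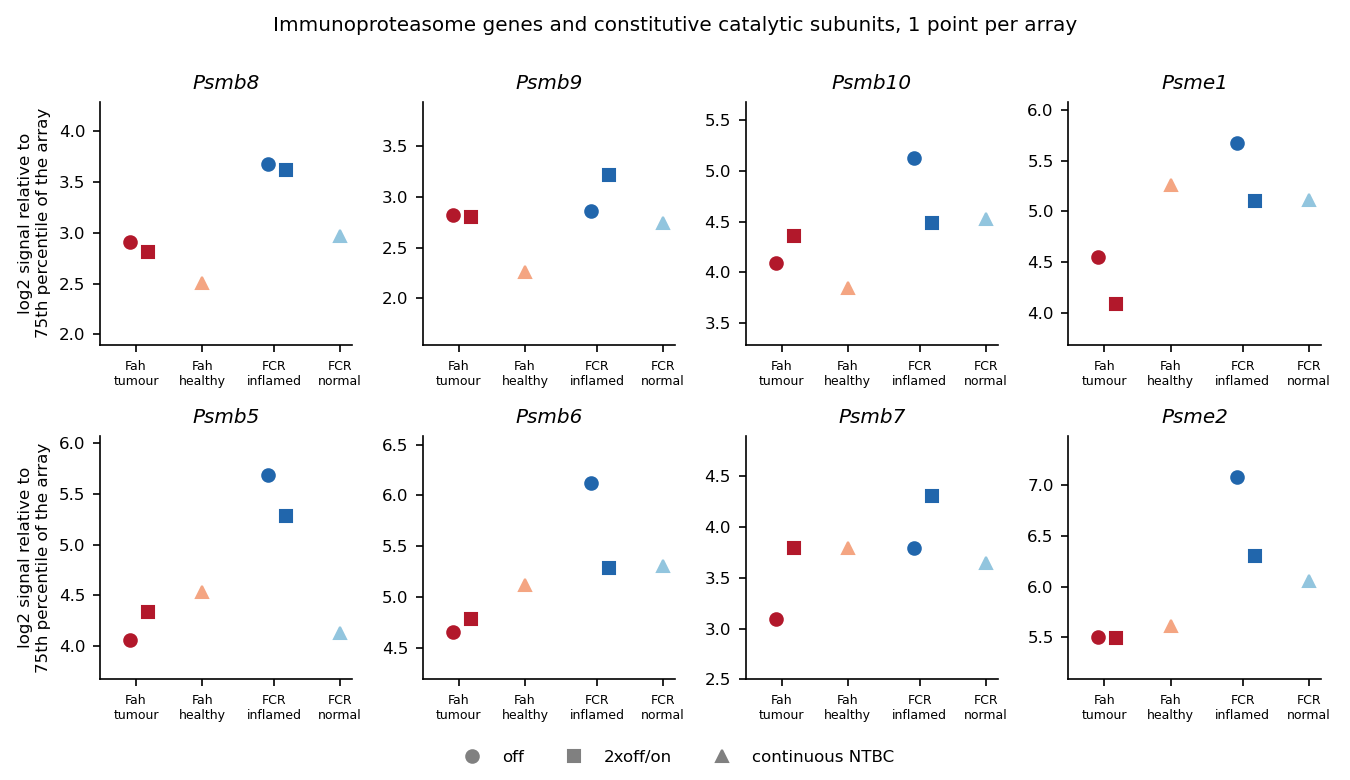
Relative signal (log2 scale, 0 at the 75th percentile of the array; vertical axis) of the 5 immunoproteasome genes and the 3 constitutive catalytic subunits, 1 point per array, with circles for off, squares for 2xoff/on and triangles for continuous NTBC. Psmb8, Psmb10, Psme2 and Psmb6 have every Fah point below every FCR point, and the vertical axes do not start at 0.

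The constitutive catalytic subunits had differences of similar size to those of the immunoproteasome genes. Psmb5, the chymotrypsin-like beta5, had 4.06, 4.33 and 4.53 on the tumour off, tumour 2xoff/on and healthy Fah arrays, against 5.68, 5.28 and 4.13 on the inflamed off, inflamed 2xoff/on and normal FCR arrays. Psmb6, the caspase-like beta1, had 4.65, 4.78 and 5.11 on the tumour off, tumour 2xoff/on and healthy Fah arrays, against 6.12, 5.29 and 5.30 on the inflamed off, inflamed 2xoff/on and normal FCR arrays. Psmb7, the trypsin-like beta2, had 3.09, 3.79 and 3.79 on the tumour off, tumour 2xoff/on and healthy Fah arrays, against 3.80, 4.31 and 3.65 on the inflamed off, inflamed 2xoff/on and normal FCR arrays. Psmb6 had no overlap between genotypes, and Psmb5 and Psmb7 were higher in healthy Fah than in normal FCR liver. The Fah minus FCR differences were -0.72 ± 0.42 for Psmb5, -0.72 ± 0.36 for Psmb6 and -0.36 ± 0.31 for Psmb7 (SE), with limma adjusted p of 0.523, 0.479 and 0.638.

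By role, the medians of the 20S core lay further below 0 than those of the 19S cap, which was not tested. All 14 constitutive 20S subunits had negative Fah minus FCR differences, with a median of -0.66, where 58.3% of all genes had negative ones. The 7 alpha subunits (Psma1 to Psma7), which gate the entrance of the core, had a median of -0.60, and the 4 non-catalytic beta subunits (Psmb1 to Psmb4) had a median of -0.66. The 6 ATPases of the 19S cap (Psmc1 to Psmc6) had a median of -0.30, with 4 below 0. The 11 further 19S subunits had a median of -0.19, with 9 below 0. After quantile normalization the medians were -0.28 for the 14 core subunits, 0.042 for the ATPases and 0.065 for the further 19S subunits, so the sign for the cap follows the scaling.

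Of the members with the lowest Fah minus FCR differences, Psma8 and Psmb11 are known from single tissues. Psma8, an alpha subunit known from testis, had -1.55, -1.17 and -1.45 on the tumour off, tumour 2xoff/on and healthy Fah arrays, against 0.59, -0.52 and -1.14 on the inflamed off, inflamed 2xoff/on and normal FCR arrays. Its difference was -1.03 ± 0.41 (SE; Fah minus FCR), with a limma adjusted p of 0.400. Psmb11, the catalytic subunit of the thymoproteasome, was well above background on 1 of 2 tumour arrays and both inflamed arrays only, and a second probe of it was dim on every array. By its brighter probe, its signal in inflamed liver was at least 5.24-fold that on the lone normal FCR array, with measured means of -3.12 and -6.40. Both inflamed arrays are among those that let it pass the filter on dim genes, so a test of this difference cannot decide it. Its withdrawal difference over both genotypes was 1.49, and -0.20 with normexp background correction. Psmb3, a structural beta subunit, had a difference of -0.96 ± 0.42 (SE; Fah minus FCR), with a limma adjusted p of 0.426.

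The positive side held few members. Psmc3ip had 0.70 ± 0.44 (SE; Fah minus FCR), with a limma adjusted p of 0.546. Psmd1, a large scaffold of the 19S cap, had 0.44 ± 0.35 (SE), with a limma adjusted p of 0.617. Psmc3, an ATPase subunit, had 0.16 ± 0.31 (SE), and its sign turned to -0.12 when the off array of either genotype was left out.

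Counted by regimen, 21 of the 45 members were lower in Fah than in FCR at each of the 3 regimens, among them 4 immunoproteasome genes and 6 of the 7 alpha subunits. Over all genes tested 24.5% met that rule, and with the authors' deposited values 13 members did. Relative to the 75th percentile, every Fah array lay below every FCR array for 12 of the 45 members, against 5.78% of all genes. No other scaling is given for this count. The members' median was -0.42 relative to the 75th percentile, -0.50 relative to the array median, -0.11 after quantile normalization and -0.12 in the authors' values; the median of all genes was -0.11, -0.18, -0.01 and -0.01 under these 4 scalings. Without the off array of either genotype the members' median was -0.25 and that of the immunoproteasome genes -0.45.

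In this scaling the gap between genotypes was smallest on continuous NTBC, where the 75th percentile signals of both arrays were also closest (363 and 374). The part of the scaling in the gaps by regimen was not tested. Between healthy Fah and normal FCR liver, 1 array each, 0 of 45 members were 2-fold or more apart, where 8.29% of all genes were. The lowest differences there were those of Psmb10 (-0.68), Psmb9 (-0.49), Psmb8 (-0.46), Psmc3ip (-0.45) and Psme2 (-0.44), while Psme1 had 0.15. Psmb2, a structural beta subunit, had the highest, 0.47. With 1 array each there is no replicate check on these values.

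**Figure D2:**
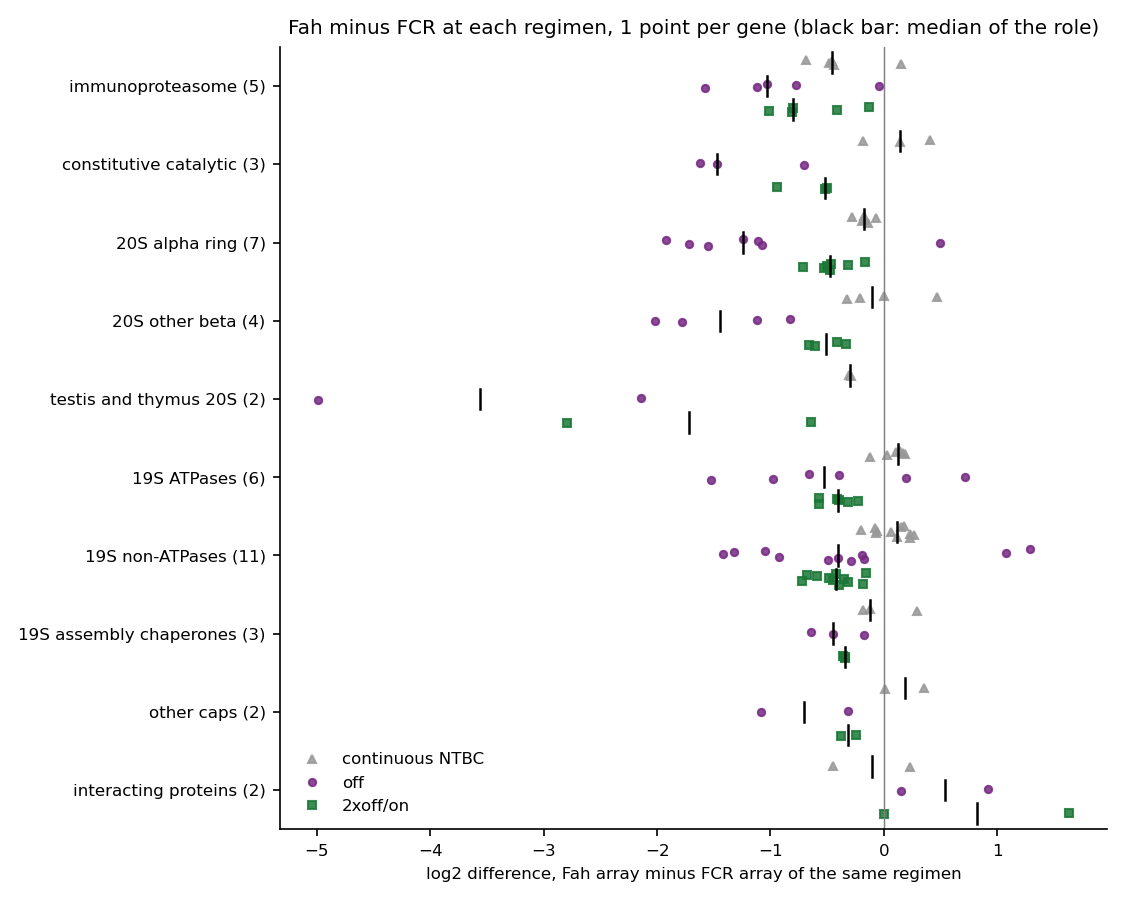
Fah minus FCR difference of relative signal (log2, horizontal axis) of each of the 45 members, 1 point per gene and regimen, grouped by role with the number of genes in parentheses; each point is 1 array minus 1 array and black bars are medians of a role. On continuous NTBC all points lie between -0.68 and 0.47, and at off they spread between -4.99 (Psmb11) and 1.29 (Psmd1).

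Tumour and inflamed FCR liver were also set directly against each other. The median difference (tumour minus inflamed) was -0.79 for the immunoproteasome genes, -0.99 for the 3 constitutive catalytic subunits, -0.89 for all 14 constitutive 20S subunits, -0.51 for the 19S ATPases and -0.34 for the other 19S subunits, beside -0.13 over all genes. After quantile normalization these 5 medians were -0.41, -0.41, -0.42, -0.015 and 0.0020, and in the authors' values -0.47, -0.46, -0.43, -0.055 and -0.048. No member passed: 0 of 45 were called by limma with Benjamini-Hochberg adjustment, against 0.215% of all genes, and 9 had an unadjusted p under 0.05, against 9.15% of all genes. Both tumour arrays lay below both inflamed arrays for 5 of 5 immunoproteasome genes and 28 of the 40 other members, where 23.8% of all genes did. The lowest value by limma's fit, -3.89 ± 0.84 for Psmb11 (SE; n = 2 arrays each), had an adjusted p of 0.136, and 1 of the tumour arrays was not well above background. With slide as a block Psmb11 was called, and without the inflamed 2xoff/on array 3 members (Psma2, Psma5 and Psmb3) were called.

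The second comparison set withdrawn against continuous NTBC in both genotypes, which asks how injury, inflammation or tumour growth moved these genes. Only Psmc3ip among the 45 members passed, a share of members to be read against 22.2% of all genes called and 13.9% called as higher. Psmc3ip acts in strand exchange during meiosis and was counted among the interacting proteins, not among the proteasome subunits. Its relative signal was -0.51, -0.07 and -3.97 on the tumour off, tumour 2xoff/on and healthy Fah arrays, against -1.43, -1.70 and -3.53 on the inflamed off, inflamed 2xoff/on and normal FCR arrays. All 4 withdrawn arrays lay above both continuous ones, and the difference was 2.82 ± 0.47 (SE; withdrawn minus continuous, n = 4 and 2 arrays), with a limma adjusted p of 0.00510. A second probe gave 2.75.

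No proteasome subunit passed on withdrawal. The immunoproteasome genes had a median of 0.33 (withdrawn minus continuous), the other members a median near 0 and all genes -0.02. The immunoproteasome median was 0.016 relative to the array median and 0.64 after quantile normalization. Psmb8 had 0.52 ± 0.30, Psmb9 0.42 ± 0.30 and Psmb10 0.33 ± 0.34 (SE), with limma adjusted p of 0.247, 0.347 and 0.522. Psme2 had 0.27 ± 0.39 and Psme1 -0.33 ± 0.38 (SE), with limma adjusted p of 0.667 and 0.581. Psmb5, Psmb6 and Psmb7 had 0.51, 0.0028 and 0.03. The median of all 45 members was 0.02 relative to the 75th percentile, -0.29 relative to the array median and 0.26 after quantile normalization, so its sign follows the scaling. It was 0.18 without the tumour off array and -0.19 without the inflamed off array, so its sign also turned with the array left out.

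The 19S cap had the lowest withdrawal values among the roles. All 6 ATPases were below 0 with a median of -0.33, and 10 of the 11 further 19S subunits were below 0 with a median of -0.16, while 13 of the 14 constitutive 20S subunits were above 0 with a median of 0.16. Over all genes 50.8% were below 0. After quantile normalization the medians were -0.028 for the ATPases, -0.029 for the further 19S subunits and 0.42 for the core, and relative to the array median -0.64, -0.48 and -0.15. Psmd1 had -0.88 ± 0.37 (SE), with a limma adjusted p of 0.124, and 2.86, 2.25 and 3.24 on the tumour off, tumour 2xoff/on and healthy Fah arrays, against 1.57, 2.40 and 3.06 on the inflamed off, inflamed 2xoff/on and normal FCR arrays. Its continuous arrays held the highest value of each genotype, and it passed the test relative to the array median (-1.19). Psmd6, a lid subunit, had -0.69 ± 0.31 (SE), with a limma adjusted p of 0.146. Psmd3, another lid subunit, had -0.52 ± 0.36 (SE), with a limma adjusted p of 0.347.

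The withdrawal medians of the core subunits had opposite signs in the 2 genotypes in this scaling. In Fah, tumour minus healthy had a median of -0.31 over the 14 constitutive 20S subunits, with 12 of 14 below 0, beside 53.3% of all genes. In FCR, inflamed minus normal had a median of 0.54, with 14 of 14 above 0, beside 51.6% of all genes. After quantile normalization the Fah median turned to 0.27 and in the authors' values to 0.30, so the opposite sign was lost, while the FCR median was 0.63 and 0.64. By array, the tumour off array had 14 of 14 below healthy with a median of -0.48, and the tumour 2xoff/on array had 8 of 14 below with a median of -0.079. The inflamed off array had 13 of 14 above normal with a median of 0.85, and the inflamed 2xoff/on array had 11 of 14 above with a median of 0.56. Over all 45 members the tumour minus healthy median was -0.34, which turned to 0.05 after quantile normalization and to 0.01 in the authors' values, while the inflamed minus normal median was 0.30, 0.41 and 0.42 under the same scalings. The difference between both responses was tested for each gene and passed for 0 of 15378 genes by limma (0% called, with 331 genes or 2.15% at an unadjusted p under 0.05), so no member was called. Tumour lay below healthy on both arrays while inflamed liver lay above normal on both for 11 of 45 members, among them Psmb5, Psmb2, Psmb3, Psma2, Psma7 and Psme2, against 3.81% of all genes.

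In the Fah comparison the catalytic immunoproteasome subunits stood on the other side of 0 than their constitutive counterparts in this scaling. Tumour minus healthy was 0.35 ± 0.55 for Psmb8, 0.55 ± 0.56 for Psmb9 and 0.38 ± 0.57 for Psmb10 (SE; n = 2 and 1 arrays), with limma adjusted p of 0.832, 0.717 and 0.821. It was -0.34 for Psmb5, -0.40 for Psmb6 and -0.35 for Psmb7, and these 3 signs turned to 0.24, 0.21 and 0.066 after quantile normalization. Psme2 had -0.11, which turned to 0.57 after quantile normalization, and Psme1 had -0.94 ± 0.57 (SE). Relative to the array median, Psmb8 had -0.029. Both tumour arrays lay above the healthy one for 5 of 45 members (Psmb8, Psmb9, Psmb10, Psmc3ip and Psmd13), against 35.8% of all genes.

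Of the 45 members only Psmc3ip passed between tumour and healthy Fah liver, with 3.68 ± 0.68 (SE) and a limma adjusted p of 0.0199, beside 5.05% of all genes called and 3.91% called as higher. Without the tumour 2xoff/on array its adjusted p was 0.0919, and in the authors' values 0.061. The lowest values were those of Psmd6 (-0.94 ± 0.55), Psmd4 (-0.86 ± 0.55) and Psmc1 (-0.85 ± 0.54; SE each), with limma adjusted p of 0.436, 0.492 and 0.493. Psmd4 is a ubiquitin receptor of the cap and Psmc1 an ATPase. Both tumour arrays lay below the healthy array for 15 of the 17 19S subunits and 8 of the 14 constitutive 20S subunits, against 42.8% of all genes.

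In FCR liver, 0 of 45 members passed between inflamed and normal, beside 1.76% of all genes. Psmb5 had 1.35 ± 0.55, the highest value of a constitutive subunit, with an adjusted p of 0.313 (limma, n = 2 and 1 arrays). Psmb8 had 0.68 ± 0.55, Psme2 0.64 ± 0.57, Psmb9 0.29 ± 0.56, Psme1 0.28 ± 0.57 and Psmb10 0.28 ± 0.57 (SE). Psmc3ip had 1.96 ± 0.68 (SE), with a limma adjusted p of 0.222, and Psma8 had 1.17 ± 0.71 (SE), with a limma adjusted p of 0.550. Psmd1 had the lowest value, -1.07 ± 0.63 (SE), followed by Psmc3 (-0.51) and Psmd6 (-0.43). Without the inflamed off array the values of Psmb10, Psme1 and Psmb6 were -0.037, -0.0057 and -0.015, and the members' median was 0.12 in place of 0.30.

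**Figure D3:**
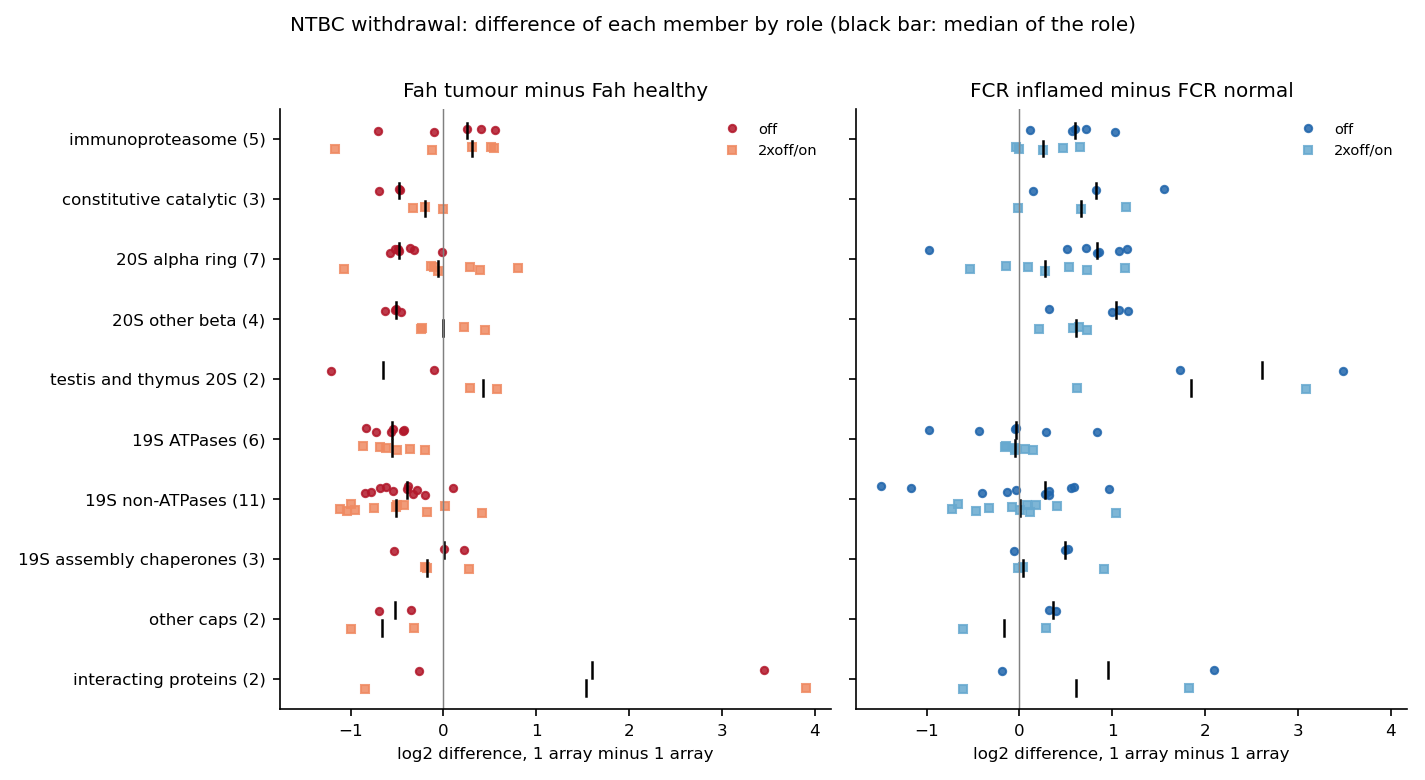
Withdrawn minus continuous difference of relative signal (log2, horizontal axis) of each member by role, with Fah tumour minus Fah healthy on the left and FCR inflamed minus FCR normal on the right; circles are off, squares are 2xoff/on and black bars are medians of a role and regimen. In the scaling shown, the immunoproteasome median lies above 0 in all 4 sets, and the medians of the 19S ATPases and non-ATPases lie below 0 in tumour; for the mean of both tumour arrays these medians turned to -0.029 (immunoproteasome, array median) and 0.019 (19S non-ATPases, quantile normalization).

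Within an array, the immunoproteasome subunit can be set against the constitutive subunit it replaces, and a shift of that difference between arrays shows unequal change. Psmb8 minus Psmb5 was -1.15, -1.52 and -2.03 on the tumour off, tumour 2xoff/on and healthy Fah arrays, against -2.00, -1.66 and -1.17 on the inflamed off, inflamed 2xoff/on and normal FCR arrays. Both tumour arrays lay above healthy liver and both inflamed arrays lay below normal liver. The shift was 0.69 for tumour minus healthy and -0.66 for inflamed minus normal.

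Psmb9 minus Psmb6 was -1.83, -1.98 and -2.85 on the tumour off, tumour 2xoff/on and healthy Fah arrays, against -3.26, -2.07 and -2.55 on the inflamed off, inflamed 2xoff/on and normal FCR arrays. Psmb10 minus Psmb7 was 1.00, 0.57 and 0.05 on the tumour off, tumour 2xoff/on and healthy Fah arrays, against 1.33, 0.18 and 0.88 on the inflamed off, inflamed 2xoff/on and normal FCR arrays. Tumour lay above healthy Fah liver on both arrays for all 3 pairs, with shifts of 0.69, 0.95 and 0.73 beside a pooled SD between both withdrawal arrays of a genotype of 0.25, 0.60 and 0.61, while the inflamed arrays lay on either side of normal liver for Psmb9 minus Psmb6 and for Psmb10 minus Psmb7. The inflamed minus normal shifts of these 2 pairs were -0.11 and -0.12, smaller than that spread. Both shifts within a genotype are taken from the same single continuous array. That array adds its own spread, so the shifts are less certain than the SD alone shows. For Psmb9 minus Psmb6, tumour minus inflamed was 0.76 and healthy minus normal -0.30. For Psmb10 minus Psmb7 these were 0.03 and -0.83, so its tumour shift rests largely on the lone healthy array. No test was made on the pairs, since the members were chosen with results of these data known.

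The median of the 5 immunoproteasome genes minus that of the 40 other members was 0.60, 0.38 and -0.07 on the tumour off, tumour 2xoff/on and healthy Fah arrays, against 1.19, 0.33 and 0.72 on the inflamed off, inflamed 2xoff/on and normal FCR arrays. Healthy Fah liver held the lowest value, and the inflamed arrays stood on both sides of normal liver. A separate measure took the difference of each gene first, and then the median of the 5 genes minus that of the other members. It is not computed from the array values above and can differ from them in size and sign. This gap in median difference was 0.71 for tumour minus healthy (0.52 to 0.73 over the alternatives) and -0.02 for inflamed minus normal (-0.04 to 0.15). In the Fah minus FCR comparison it was -0.27, between -0.31 and -0.16 over the alternatives.

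**Figure D4:**
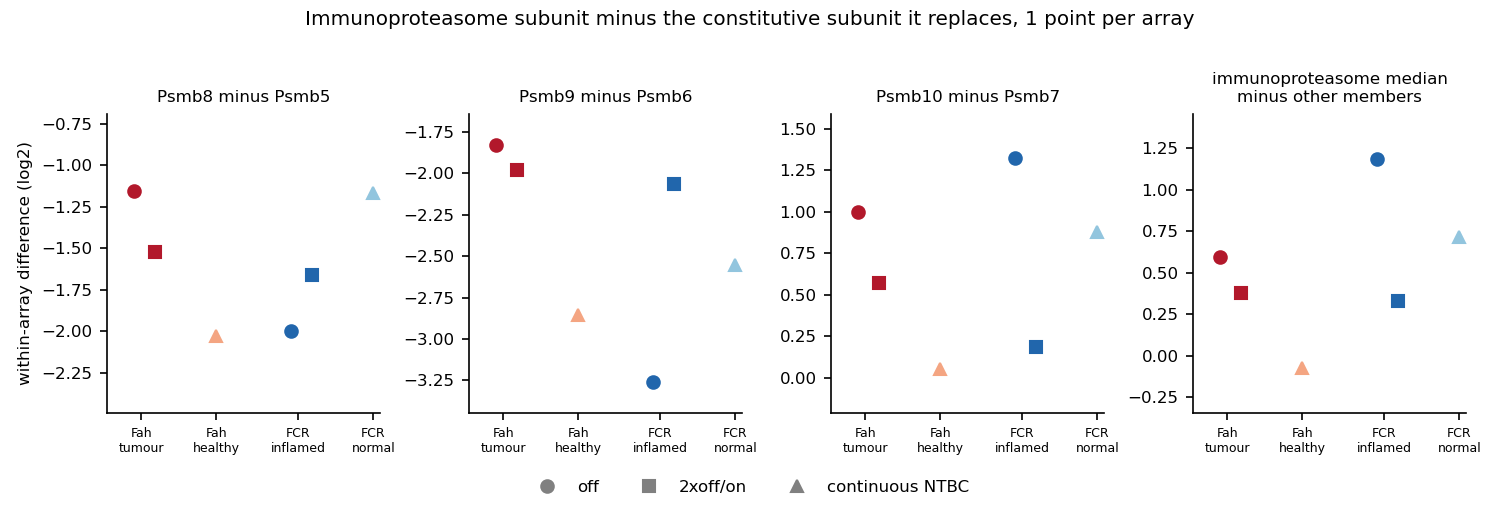
Within-array difference (log2, vertical axis) between each catalytic immunoproteasome subunit and the constitutive subunit it replaces, and between the medians of the immunoproteasome genes and of the other members, 1 point per array; circles are off, squares 2xoff/on and triangles continuous NTBC. Only shifts between arrays can be read, since the genes have different probes; in all 4 panels the tumour points lie above the healthy Fah point.

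The 2xoff/on arrays were also set against the off arrays over both genotypes. Of the 45 members 0 passed, beside 0.793% of all genes. Psma4, an alpha subunit, had 3.30 and 2.18 on the tumour 2xoff/on and off arrays and 3.80 and 1.68 on the inflamed 2xoff/on and off arrays. It was higher under 2xoff/on in both genotypes, by 1.62 ± 0.38 (SE; 2xoff/on minus off, n = 2 arrays each) with a limma adjusted p of 0.0944, and it passed with normexp background correction (1.61). Psmd9, an assembly chaperone of the 19S cap, had 0.89 ± 0.35 (SE), with a limma adjusted p of 0.256, and Psmd13, a lid subunit, had 0.74 ± 0.45 (SE), with a limma adjusted p of 0.438. Psma5, an alpha subunit, had -1.10 ± 0.46 (SE), with a limma adjusted p of 0.280, and Psmd3 had -0.81 ± 0.42 (SE), with a limma adjusted p of 0.369.

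The immunoproteasome genes had values between -0.52 (Psme1) and 0.17 (Psmb9) for 2xoff/on minus off, with a median of -0.18. Psmb7 had 0.60 ± 0.38 (SE), with a limma adjusted p of 0.446. Psme4, the PA200 cap, showed how far probes of a gene can part: its brightest probe had -0.66 ± 0.41 (SE), while a dimmer probe had -0.17 and -3.59 on the tumour 2xoff/on and off arrays and -0.28 and -2.90 on the inflamed 2xoff/on and off arrays. That probe had 3.02 ± 0.48 (SE), with a limma adjusted p of 0.0293 when each of 22595 probes was tested on its own. The remaining probe had -0.86.

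Several members rest on probes that disagree. Of 14 members with several tested probes, 7 had probes of opposite sign in the Fah minus FCR comparison (Psma4, Psmc5, Psmd12, Psmd2, Psmd9, Psme3ip1 and Psme4), and the median range between probes of a member was 0.35, against 0.44 over 5532 genes with several probes. In the withdrawal comparison 3 had opposite signs (Psmd12, Psmd9 and Psme4). Neither Psmb8 nor Psme2 was among them.

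Genes that act with the proteasome were read from lists chosen with earlier results of these data known. Of 14 measured assembly and associated genes, 0 passed in either direction in any of the 7 comparisons. Over all genes the share called was 22.2% on withdrawal, 5.05% for tumour minus healthy and 1.76% for inflamed minus normal. For the remaining comparisons it ran from 0% to 0.793%. The median of the 14 genes was -0.44 for Fah minus FCR, -0.29 for tumour minus healthy and 0.22 for inflamed minus normal. Pomp, which guides assembly of the core and of immunoproteasomes, had 5.44, 5.65 and 6.05 on the tumour off, tumour 2xoff/on and healthy Fah arrays, against 7.10, 6.18 and 6.39 on the inflamed off, inflamed 2xoff/on and normal FCR arrays. Its Fah arrays all lay below its FCR arrays, with a difference of -0.84 ± 0.39 (SE) and a limma adjusted p of 0.447.

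Nrf1 (Nfe2l1) is the transcription factor that raises proteasome subunit genes when proteasome activity is short. Of 8 measured genes of its axis 2 fell on withdrawal and 0 rose, with a median of -0.52, where 8.28% of all genes fell. Herpud1, an ER-associated degradation protein, fell by 2.21 ± 0.35 (SE), with a limma adjusted p of 0.00381, and had 4.36, 3.80 and 6.63 on the tumour off, tumour 2xoff/on and healthy Fah arrays, against 4.76, 4.51 and 6.51 on the inflamed off, inflamed 2xoff/on and normal FCR arrays. Ngly1, the peptide N-glycanase that processes Nrf1, fell by 1.11 ± 0.30 (SE), with a limma adjusted p of 0.0305. Nfe2l1 itself had -0.54 ± 0.34 (SE), with a limma adjusted p of 0.297.

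MHC class I presentation is the route the immunoproteasome feeds. Of 13 measured genes, 1 fell on withdrawal, H2-Q4 by 1.39 ± 0.42 (SE) with a limma adjusted p of 0.0485, a share like that of all genes (8.28% fell), and 12 of 13 had negative values, beside 50.8% of all genes. Tap1, which shares its promoter window with Psmb9, had -0.08, -0.67 and -0.35 on the tumour off, tumour 2xoff/on and healthy Fah arrays, against -2.24, 0.23 and -0.22 on the inflamed off, inflamed 2xoff/on and normal FCR arrays. On the inflamed off array Tap1 was the lowest of its 6 values, while Psmb9 was its second highest there. Over the 6 arrays Tap1 and Psmb9 had a Pearson r of 0.08, given as a description.

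Interferon genes were read from the same kind of list. Of 16 measured type I interferon genes 8 rose on withdrawal with a list median of 1.26, and of 20 interferon gamma response genes 5 rose (Ciita, Irf8, Gbp2, Gbp3 and Cxcl10) with a list median of 0.63, where 13.9% of all genes rose. Isg15, a ubiquitin-like modifier, had 1.88, 1.80 and 0.20 on the tumour off, tumour 2xoff/on and healthy Fah arrays, against 4.03, 5.14 and 2.78 on the inflamed off, inflamed 2xoff/on and normal FCR arrays. It was lower in Fah by limma's fit (-2.69 ± 0.32, SE; adjusted p 0.0177), as were Ifi44 (-2.99) and the GTPase gene Gbp3 (-2.00; adjusted p 0.0349). Ifng was well above background on 2 of 6 arrays.

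The 5 genes most like Psmb9 were chosen by the highest Pearson r over the 6 arrays among 12839 genes well above background on all arrays, and r is given as a description. They were Ifi27 (r = 0.997), Oas3 (0.967), Dnaja4 (0.966), Glb1 (0.964) and Aldh3b2 (0.954). Ifi27 had 5.98, 5.92 and 4.70 on the tumour off, tumour 2xoff/on and healthy Fah arrays, against 6.18, 6.89 and 5.88 on the inflamed off, inflamed 2xoff/on and normal FCR arrays. Like Psmb9 it was lowest in healthy Fah liver and highest on the inflamed 2xoff/on array. Among the members Psmb8 was the most like Psmb9 (r = 0.80), ranking 176th of the 12839 genes, and Psme1 had an r of -0.09.

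Markers of other cells were read beside these values. The leukocyte gene Ptprc rose by 2.25 ± 0.40 on withdrawal (SE; limma adjusted p 0.00626). For each cell type the linear signals of its markers were summed and then put on the log2 scale, so the brightest probes weigh most. This summed level of 8 T cell markers was 1.41, 0.98 and 0.35 on the tumour off, tumour 2xoff/on and healthy Fah arrays, against -0.15, -0.07 and -0.26 on the inflamed off, inflamed 2xoff/on and normal FCR arrays. In the same order, 8, 8 and 6 of the 8 markers were above background on the Fah arrays, against 5 on each FCR array. The summed level of 6 macrophage markers was 6.10, 6.90 and 4.89 on the tumour off, tumour 2xoff/on and healthy Fah arrays, against 7.66, 5.33 and 4.97 on the inflamed off, inflamed 2xoff/on and normal FCR arrays. That of 7 hepatocyte markers was 9.68, 9.43 and 11.04 on the tumour off, tumour 2xoff/on and healthy Fah arrays, against 10.17, 9.75 and 10.81 on the inflamed off, inflamed 2xoff/on and normal FCR arrays. Of the 8 T cell markers, 6 had positive Fah minus FCR differences, while Cd3e and Cd4 had -0.17 and -0.28. Of the 8, 1 passed the test (Cd8a, 3.96), where 0.312% of all genes were called. Cd8a was well above background on 2 of 6 arrays only, so its difference rests in part on background signal. All 6 macrophage markers had positive withdrawal differences and 2 passed (Cd14 and Lyz2). Over all genes 50.8% had negative withdrawal differences and 13.9% were called as higher. The part of these cell types in the proteasome values was not tested. In such bulk samples fewer cells of a type and less RNA per cell cannot be told apart.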

How the data were processed

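The deposited scanner files were written by Agilent Feature Extraction 10.7.3.1 under protocol GE1_105_Dec08, with probes placed on mm9, per the file headers (version 10.5 in the submitters' processing notes). Their processed signal is an intensity per spot from which the software had subtracted background, per the file headers, with no scaling across arrays. The authors' deposited table gives log2 values per probe, whose array medians were 6.45 to 6.48; how they were scaled was not stated in the labels.

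Control and outlier spots were removed, as were 29 probes missing on any array. Spots of a probe were averaged, which left 41145 probes. Accessions were matched without versions to RefSeq names of GRCm38.p6, which named 26904 probes, and the brightest probe stood for its gene. Log2 signals relative to the 75th percentile went into limma 3.58.1, run in R 4.3.3 (eBayes on lmFit, with an intensity trend, two-sided, Benjamini-Hochberg, threshold 0.05) over the 15378 genes that were well above background on 2 arrays or more. Genotype, withdrawal and regimen came from an additive model with 2 residual degrees of freedom, and the other comparisons from a model of 4 group means, in which a lone array takes the spread of the other groups. The number of arrays limits the precision, and p-values measure only the spread between these arrays, which may be technical.

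Alternatives were normexp with offset 50 on the median spot signal, quantile normalization, the array median, other filters on dim probes, the mean of probes, no intensity trend, the authors' values, slide or regimen terms, and leaving out arrays; each probe on its own, and medians by role under each scaling and array, were added after the values were seen. The scripts were checked on simulated data. The members and lists were chosen with earlier results of these data known. Named are the 5 immunoproteasome genes, Psmb5, Psmb6 and Psmb7, members past the threshold, the 3 highest and 3 lowest differences per comparison, list genes past the threshold or among the 2 largest differences, and the 5 genes most like Psmb9. Pomp, Tap1, Nfe2l1, Ifng and members named for a probe, a count or a regimen were added after values were seen.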

Additional observations from a re-analysis of the deposited data

Results flagged for a closer look

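Psmb8 minus Psmb5, taken within each array, shifted by 0.69 in tumour against healthy Fah liver and by -0.66 in inflamed against normal FCR liver, a difference of 1.36 on the log2 scale. It stands out because both tumour arrays moved one way (0.88 and 0.51) and both inflamed arrays the opposite way (-0.84 and -0.49). The difference was not tested. Both shifts within a genotype share 1 continuous array, so they are not independent. Set against each other, the 2 continuous arrays differed by -0.86 (healthy minus normal) and the withdrawn ones by 0.49 (tumour minus inflamed), so the continuous arrays hold the larger share of the difference. Tumour minus healthy was 0.35 for Psmb8, which turned to -0.029 relative to the array median, and -0.34 for Psmb5, which turned to 0.24 after quantile normalization and to 0.22 in the authors' values.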

How the results depend on the processing

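Of 329 recomputed counts, list medians and pair shifts, 306 stayed close to the reported value. Counts of members called moved between 0 and 3. On withdrawal 2 members were called with the array median (Psmc3ip and Psmd1) and when every probe was tested on its own (Psmc3ip and Psme4), and 1 to 2 when an array was left out. For 2xoff/on minus off, 1 was called with normexp (Psma4) and with every probe on its own (Psme4), and 0 to 1 with an array left out. For tumour minus inflamed liver 1 was called with slide as a block (Psmb11), and 0 to 3 with an array left out. For tumour minus healthy liver 0 were called with the authors' values and with every probe on its own, and 0 to 1 with an array left out. For Fah minus FCR the range with an array left out was 0 to 1, Psmb11 being the gene called without the healthy, the normal or the tumour 2xoff/on array. The count of members lower in Fah at every regimen was 13 with the authors' values. The Psmb8 minus Psmb5 shift in tumour was 0.44 after quantile normalization and 0.37 in the authors' values, and its difference between genotypes 1.10 and 1.06.

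Some members changed sign. For withdrawal, Psmb11 had -0.20 with normexp. For 2xoff/on minus off, Psmc3ip had -0.038 (quantile), -0.29 (array median) and -0.031 (authors' values), and Psme4 had 0.50 with the mean of its probes. For tumour minus healthy liver, Psme2, Psmb5, Psmb6 and Psmb7 had 0.57, 0.24, 0.21 and 0.066 after quantile normalization, and 0.51, 0.22, 0.19 and 0.0082 in the authors' values, while Psmb8, Psma4 and Psma6 had -0.029, -0.14 and -0.20 with the array median. For the difference of the responses, Psmb10 had -0.030 with the array median. With an array left out, these ranges crossed 0: Psmc3 for Fah minus FCR (-0.12 to 0.44), Psmb11 on withdrawal (-0.32 to 3.29), Psmc3ip for 2xoff/on minus off (-0.61 to 0.79), Psmd13 for tumour minus inflamed liver (-0.55 to 1.03), Psmb7 (-0.70 to 0.00061), Psma4 (-0.32 to 0.80) and Psma6 (-0.018 to 0.39) for tumour minus healthy liver, Psmb10 (-0.037 to 0.60), Psme1 (-0.0057 to 0.56) and Psmb6 (-0.015 to 0.82) for inflamed minus normal liver, and Psmd13 (-0.34 to 1.23), Psmd1 (-0.025 to 0.80) and Psmb10 (-0.21 to 0.42) for the difference of the responses. The causes were not tested.

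Counts over all genes depend on the processing more. Genes called for Fah minus FCR numbered 48 as reported, and 347 with normexp, 10 in the authors' values and 0 without either off array; tumour against inflamed liver had 33, and 970 with slide as a block. The additive fit pairs 1 Fah with 1 FCR array at each regimen; without the regimen term 1 gene was called for Fah minus FCR. The labels give no replicate numbers to pair by. With 6 arrays and 2 residual degrees of freedom, differences of the size seen among the subunits could not be told from the spread between arrays, and values that missed the threshold do not show that the groups are alike.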

Other observations

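Bile duct and stellate markers, which the proteasome comparisons do not use, moved strongly on withdrawal. Of 4 measured bile duct markers 3 rose on withdrawal (Epcam by 3.77, Krt19 by 2.95 and Krt7 by 2.83 on the log2 scale), and of 5 stellate cell and fibroblast markers 4 did, among them Col1a1 by 2.86. Of 4 neutrophil markers 3 rose, S100a8 by 5.31 and S100a9 by 4.53. The hepatocyte genes Cyp2e1, Tat and G6pc fell by 2.55, 1.74 and 1.41. Over all genes 13.9% rose and 8.28% fell on withdrawal. All these were called by limma with Benjamini-Hochberg adjustment at 0.05.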
